A study of Mus musculus with 4 samples.

Results

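The genes described here are 10 extracellular matrix and matrix-protease inhibitor genes of the mouse liver: Col1a1, Col1a2, Col3a1, Col4a1, Col4a2, Sparc, Hspg2, Fn1, Timp1 and Timp3. They were chosen by name and are 10 of the 17813 genes in the table. Their levels were followed across mesenchymal (stellate, fibroblast, smooth muscle and mesothelial), endothelial, epithelial, myeloid and other cell classes called by marker genes. The study profiled single cells of hepatocellular carcinoma tissue from C57BL/6 mice aged 5 months with droplet libraries that count the 3′ ends of transcripts. The groups were Miz1_delta_hep (2 samples) and its control Miz1F/F (2 samples), where F/F marks the floxed Miz1 alleles and delta_hep a hepatocyte deletion whose Cre driver is not given in the sources used here. Mice of both groups had received the liver carcinogen diethylnitrosamine (DEN) at 25 mg/kg in week 2 of life and then carbon tetrachloride (CCl4), a hepatotoxin that causes fibrosis, at 0.5 ml/kg in corn oil every week. All cells therefore came from livers that had been exposed to both chemicals, and no untreated liver was analysed here.

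The fibrillar collagens type I and type III form the tensile fibres of scar tissue, and in the liver they are made mainly by activated hepatic stellate cells and portal fibroblasts. Type IV collagen, made of the chains encoded by Col4a1 and Col4a2, and perlecan, the heparan sulfate proteoglycan encoded by Hspg2, belong to basement membranes; hepatic sinusoids carry only a thin and incomplete one. SPARC is a collagen-binding matricellular protein, fibronectin (Fn1) is a glycoprotein of provisional matrix that hepatocytes also secrete into plasma, and TIMP1 and TIMP3 inhibit the metalloproteinases that degrade matrix.

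The deposited table held 24802 cells whose barcodes carry 4 suffixes, called barcode sets 1 to 4, with 2574, 6224, 4825 and 11179 cells and median depths of 2648, 906, 1037 and 1859 UMIs (unique molecular identifiers, each standing for 1 captured RNA molecule). The sources used here do not pair a suffix with a sample, so the Miz1_delta_hep and Miz1F/F livers could not be compared, the table counts as 1 sample, and no p-value is given. Values are given for each set instead, as levels in CPM (the mean over the cells of a class of a gene's UMIs per 1000000 UMIs of its cell), for sets with at least 20 cells of the class. Levels compared between genes are counts of 3′ ends, 1 per captured molecule, and are not scaled by transcript length. Class names mean cells that resemble the named type by its markers. RNA of other cells was present in every class examined: the 7 hepatocyte markers summed to between 742 and 7329 CPM in B cells of the 4 sets, and to between 70272 and 95412 CPM in hepatocytes. The level in B cells, which are not known as a source of collagens, is therefore given as the background. Barcodes shared between sets numbered 373.

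Most UMIs of each gene except Fn1 and Timp1 fell into 1 cell group. Endothelial cells, which held 14.2% of all UMIs in the table, held 7911 of the 9307 Col4a1 UMIs, 86.0% of the Col4a2 UMIs, 82.1% of the Hspg2 UMIs, 80.6% of the Sparc UMIs and 80.1% of the Timp3 UMIs. The 60 mesenchymal cells, with 0.465% of all UMIs, held 95.1% of the Col1a1 UMIs, 91.6% of the Col1a2 UMIs and 89.9% of the Col3a1 UMIs. Fn1 stood apart, with 41.5% of its UMIs in Krt8/Sox9 epithelial cells, 28.3% in hepatocytes and 18.3% in monocytes and macrophages. Timp1 was the most sparsely counted member, with 309 UMIs in 228 cells of the whole table, of which endothelial cells held 37.2% and mesenchymal cells 19.1%. A cluster of 398 cells that carried both Kupffer cell and endothelial markers stayed unnamed, and it held 8.77% of the Hspg2 UMIs, 7.56% of the Timp3 UMIs and 6.47% of the Col4a1 UMIs.

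**Figure D1:**
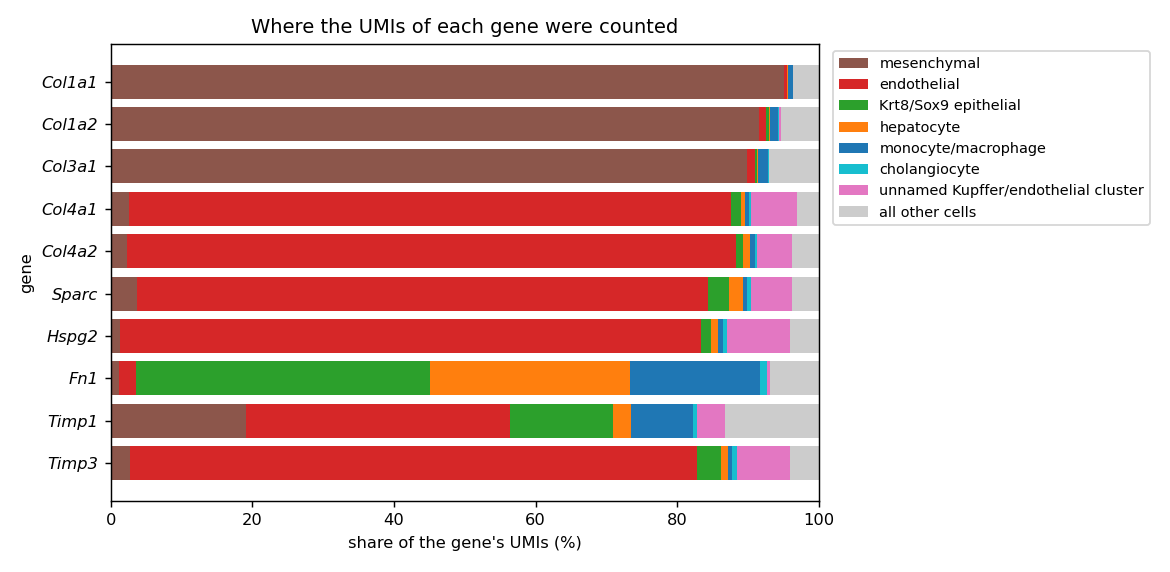
Share of each gene's UMIs (x axis, percent) counted in each cell class (colours), with 1 bar per gene. The 3 fibrillar collagen genes lie almost wholly in the 60 mesenchymal cells, Col4a1, Col4a2, Sparc, Hspg2 and Timp3 lie mostly in endothelial cells, and Fn1 is split between epithelial cells, hepatocytes and monocytes or macrophages.

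**Figure D2:**
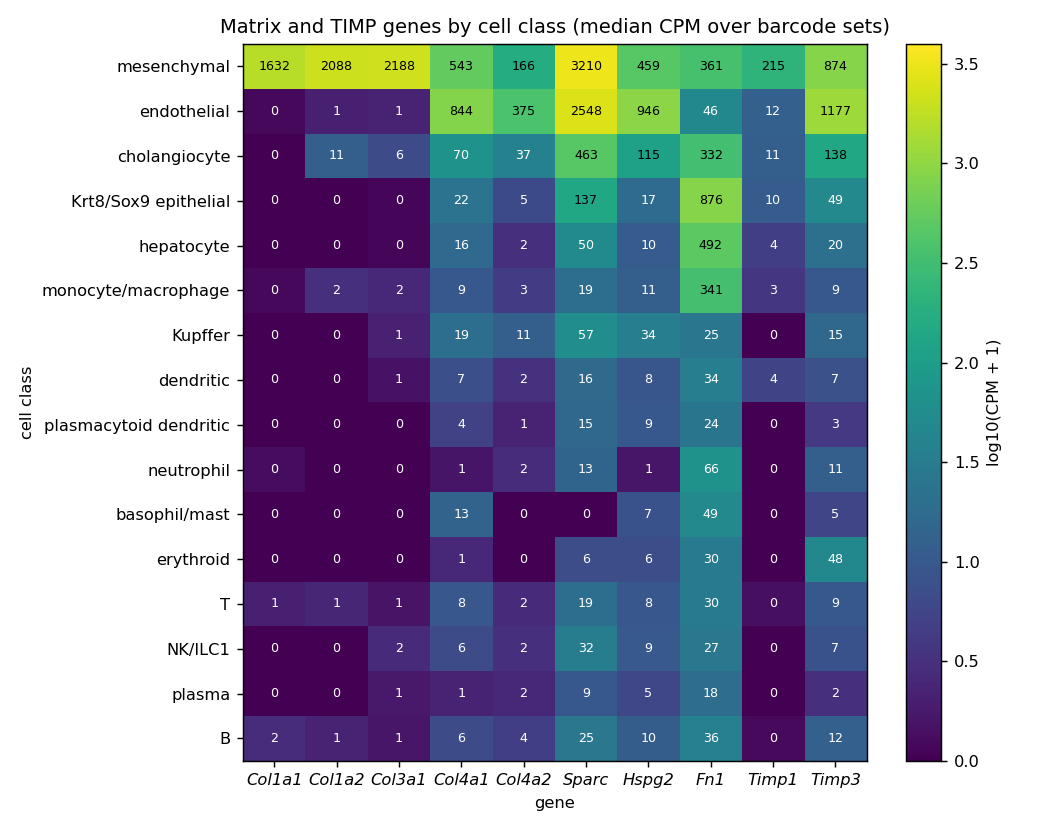
Level of each gene (columns) in each cell class (rows), as the median CPM over the barcode sets with at least 20 cells; the colour is log10(CPM + 1) and the number is CPM. Mesenchymal cells have a value in 1 set and cholangiocytes in 2 sets. Mesenchymal cells are the only row with over 1000 CPM of Col1a1, Col1a2 and Col3a1, and B cells in the bottom row show the background.

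The mesenchymal cells were a small and mixed group, which bears on every value given for them. A cell entered the group with UMIs of at least 3 genes of a list of mesenchymal markers, 21 of which were in the table. None of the 10 genes was on the list. Cells that entered the group were taken out of every other class, the endothelial class included. The 60 cells fell 0, 8, 41 and 11 to sets 1 to 4, with a median of 3481.5 UMIs, and 39 of them formed most of a cluster of 56 cells, while 10 sat in endothelial clusters. These markers set the group, so their shares in it follow in part from the rule. Decorin (Dcn), a collagen-binding proteoglycan of fibroblasts and stellate cells, had a UMI in 57 of the 60. Markers of stellate cells were less frequent. Lrat, the enzyme that esterifies retinol, had a UMI in 9 cells, Reln in 10 and Colec11 in 19. Cygb had one in 27 cells and the receptor gene Pdgfrb in 14. In the whole table these genes had a UMI in 52, 399, 76, 73 and 37 cells, so most cells with a UMI of each lay outside the group. Msln or Upk3b, markers of the mesothelium that covers the liver surface, had a UMI in 34 of the 60 cells, 32 of them in set 3. Among the 26 cells with neither, Lrat had a UMI in 8, Reln in 9, Colec11 in 16, Cygb in 14 and Pdgfrb in 12. Among the 34 cells with Msln or Upk3b these numbers were 1, 1, 3, 13 and 2. Just inside the limit, the 18 cells with exactly 3 markers had 110 CPM of Col1a1 and 1761 CPM of Sparc, and just outside, the 112 cells with exactly 2 had 17.8 and 866 CPM. The group is therefore called mesenchymal here and not stellate.

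Col1a1 (GRCm38 chr11:94936224-94953042, plus strand), Col1a2 (chr6:4504814-4541544, plus strand) and Col3a1 (chr1:45311538-45349706, plus strand) encode the chains of type I and type III collagen. RefSeq promoter windows, from 250 bases before to 50 bases after the start site, were at hand for 8 of the 10 genes, Col1a2 and Col3a1 among them. They are shown because these genes were counted in the same few cells; capitals mark matches to the 4 promoter motifs searched on both strands. One was the TATA box, spelled TATAAA. Another was the CCAAT box, which is bound by the factor NF-Y. The Sp1 site was spelled GGGCGG. The AP-1 site was spelled TGANTCA.
Col1a2, chr6:4505368-4505667, plus strand: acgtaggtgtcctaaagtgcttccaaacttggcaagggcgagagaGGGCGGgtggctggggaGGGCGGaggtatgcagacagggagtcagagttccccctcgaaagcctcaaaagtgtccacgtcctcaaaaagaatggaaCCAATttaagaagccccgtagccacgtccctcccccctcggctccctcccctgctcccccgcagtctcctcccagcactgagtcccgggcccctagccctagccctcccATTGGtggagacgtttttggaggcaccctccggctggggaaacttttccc
Col3a1, chr1:45311288-45311587, plus strand: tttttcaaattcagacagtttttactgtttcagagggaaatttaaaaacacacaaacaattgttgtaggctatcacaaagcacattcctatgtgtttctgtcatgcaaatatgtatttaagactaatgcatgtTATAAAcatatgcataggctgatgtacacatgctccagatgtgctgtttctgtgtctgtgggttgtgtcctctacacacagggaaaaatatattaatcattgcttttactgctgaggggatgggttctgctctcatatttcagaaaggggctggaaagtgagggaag
The Col1a2 window held GGGCGG at -205 and -188 and CCAAT at -109 and, on the other strand, at 1, counted from the start site as 1. The Col3a1 window held TATAAA at -117 and none of the others. TATAAA was found in 13.6% of the 32851 RefSeq promoter windows of the same length, CCAAT in 37.4%, GGGCGG in 35.7% and TGANTCA in 7.81%, and TGANTCA was in none of the 8 windows. These motifs do not overlap one another.

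Fibrillar collagen UMIs were confined to few cells. The 3 genes had 2552 UMIs in the table, and 2349 of these (92.0%) were in the 60 mesenchymal cells, 46 of which had at least 1. A single cell of set 3, with 15956 UMIs in all and UMIs of 14 of the 21 markers but no Msln or Upk3b, held 1227 of them, 48.1% of the table. That cell had 468 Col1a1 UMIs, 417 Col1a2 UMIs and 342 Col3a1 UMIs, and the next cell, also of set 3, had 100, 156 and 120. The 5 cells with the most held 73.8% together. The levels also differed between sets: Col1a1 was at 2937 CPM in the 8 mesenchymal cells of set 2, at 1632 CPM in the 41 of set 3 and at 127 CPM in the 11 of set 4. Col3a1 was at 3934, 2188 and 630 CPM there. Of the 11 cells of set 4, none lay in the mesenchymal cluster, 5 lay in endothelial clusters and 6 elsewhere. The part of cluster in these differences was not tested. Levels of these genes in mesenchymal cells thus describe a handful of cells.

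Cells with and without mesothelial markers were counted apart, within sets where possible. Of the 34 mesenchymal cells with Msln or Upk3b, 33 lay in the mesenchymal cluster, whereas of the 26 with neither 6 lay there, 10 in endothelial clusters and 10 elsewhere, so the groups also differ in cluster. In set 3 the 32 cells with Msln or Upk3b had 43 Col1a1 UMIs in 17 cells (375 CPM), 90 Col1a2 UMIs in 21 cells (701 CPM) and 168 Col3a1 UMIs in 25 cells (1202 CPM). The 9 cells of set 3 with neither had 595 Col1a1 UMIs in 6 cells (6099 CPM), 606 Col1a2 UMIs in 5 cells (7018 CPM) and 492 Col3a1 UMIs in 4 cells (5691 CPM). Col3a1 was thus the most abundant of the 3 genes in cells with mesothelial markers of set 3 and the least abundant in the others of that set. Without the cell with 1227 UMIs, the 8 others of set 3 had 3195 CPM of Col1a1, 4629 CPM of Col1a2 and 3723 CPM of Col3a1, so Col3a1 was no longer the least abundant. The 11 cells of set 4 all had neither marker and lay outside the mesenchymal cluster. Col3a1 led in them at 630 CPM, against 274 CPM of Col1a2 and 127 CPM of Col1a1. The order of the 3 genes therefore differed between sets and rests on few cells. The median depth of the cells was 2429.5 UMIs with mesothelial markers and 6087.5 UMIs without, and the part of depth and of cluster in these differences was not tested.

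**Figure D3:**
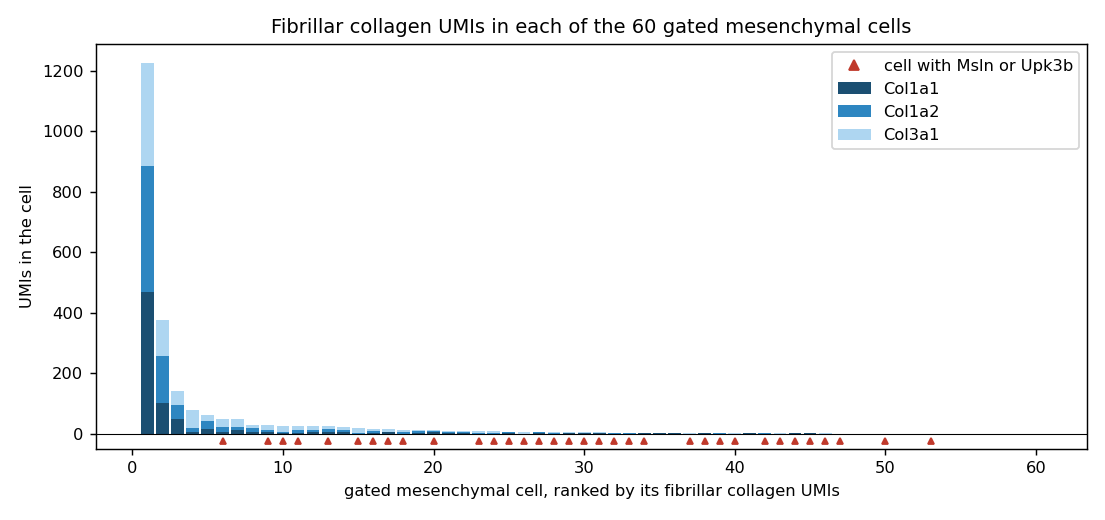
UMIs of Col1a1, Col1a2 and Col3a1 (y axis, stacked) in each of the 60 mesenchymal cells, ranked on the x axis by their sum; red triangles mark cells with a UMI of Msln or Upk3b. The first bar is the set 3 cell with 1227 UMIs, and none of the 5 highest bars carries a triangle.

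Outside the mesenchymal cells UMIs of the fibrillar collagens were rare. The 24742 other cells held 203 UMIs, in 147 cells, of which 136 had exactly 1 and the highest 17. Of the 203 UMIs, 5 of Col1a1, 22 of Col1a2 and 23 of Col3a1 were in the 17 cells of the mesenchymal cluster that missed the marker rule. After each cell was thinned to 1000 UMIs, a Col1a1 UMI was present in 29.6% of mesenchymal cells (16 of 54), in 0.0454% of endothelial cells (1 of 2203) and in 0.0534% of B cells (2 of 3743). None of the 768 hepatocytes and none of the 710 Krt8/Sox9 epithelial cells had one, which allows shares of cells with a UMI at this depth of up to 0.391% and 0.423% and sets no limit on cells that express the gene. Without thinning, 1 Col1a1 UMI was counted in hepatocytes. Without thinning, the shares were 53.3% in mesenchymal, 0.102% in endothelial and 0.118% in B cells, at median depths of 3481.5, 1967 and 1173 UMIs. Col1a2 and Col3a1 each had a UMI in 4 of the 2203 thinned endothelial cells (0.182%), against 2 (0.0534%) and 3 (0.0801%) of the 3743 B cells. The exact 95% intervals of endothelial and B cells overlapped for all 3 genes. They treat cells pooled over sets as independent and rest on few cells with a UMI, so they cannot show absence. Cells that met the marker rule had also left the endothelial class. With them, the endothelial clusters held 1, 3 and 21 Col1a1 UMIs, against 3 in the class without them. The rarity of these UMIs in endothelial cells therefore follows in part from the rule.

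Set 3 was the only set with at least 20 mesenchymal cells, so the comparison of mesenchymal with endothelial cells rests on it and has no replicate check. A gene was called when its levels differed at least 2-fold the same way in every usable set, on the log2(CPM + 10) scale, provided that its level averaged 20 CPM or more over both classes. A gene under 20 CPM in 1 of the classes can pass that filter only through the other, where it is high, so counts of called genes here and in the later comparisons are descriptions that the filter sets in part. This holds for Col1a1, Col1a2, Col3a1 and Timp1 in endothelial cells. All 10 genes passed the filter and 5 were higher and 3 lower in mesenchymal cells, against 16.4% higher and 23.3% lower of the 6738 genes tested. Mesenchymal cells had 1632 CPM of Col1a1, 2088 CPM of Col1a2 and 2188 CPM of Col3a1, against no Col1a1 UMI, 5.17 CPM of Col1a2 and 4.61 CPM of Col3a1 in endothelial cells. With the 0 Col1a1 UMIs of endothelial cells set to the limit of 3 UMIs over the class, summed Col1a1 was at least 590-fold higher in mesenchymal cells, and at least 173-fold higher without the cell with 468 Col1a1 UMIs. The 0 follows in part from the marker rule. A cell of set 3 in an endothelial cluster had 1 Col1a1 UMI and was counted as mesenchymal. Fn1 was higher as well, at 361 CPM against 49.9 CPM in endothelial cells (log2 ratio 2.63), and so was Timp1, at 215 CPM against 11.4 CPM (log2 ratio 3.40). Of the 116 Fn1 UMIs of these cells, 77 were in the cell with the most Col1a1, and without it Fn1 was at 249.7 CPM (log2 ratio 2.12) and still called.

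The basement membrane genes ran the other way in that set. Col4a1 was at 543 CPM in mesenchymal cells against 1576 CPM in endothelial cells (log2 ratio -1.52), Col4a2 at 166 CPM against 482 CPM (log2 ratio -1.48), and Hspg2 at 459 CPM against 1878 CPM (log2 ratio -2.01). Sparc, at 3210 CPM against 2841 CPM (log2 ratio 0.18), and Timp3, at 874 CPM against 1317 CPM (log2 ratio -0.59), were not called. These 3 lower calls were not kept when sets with as few as 5 mesenchymal cells were counted too: Col4a1 was then at 1918 CPM in the 8 mesenchymal cells of set 2 and at 798 CPM in the 11 of set 4, and its median log2 ratio turned to 0.25. Levels also differed inside the group. In set 3, Col4a1 was at 247 CPM in the 32 mesenchymal cells with Msln or Upk3b and at 1594 CPM in the 9 with neither, against 1576 CPM in endothelial cells of the set; 5 of the 9 with neither lay in the mesenchymal cluster and 2 in endothelial clusters. None of the 11 mesenchymal cells of set 4 carried Msln or Upk3b or lay in the mesenchymal cluster. Of these cells, 5 lay in endothelial clusters and 6 elsewhere. Of the 6 mesenchymal cells of set 2 with neither marker, 3 lay in endothelial clusters. The unnamed cluster with Kupffer cell and endothelial markers, at 470 CPM of Col4a1, held 4 of the 60 mesenchymal cells, in sets 2 and 4. The 7 pan-endothelial markers summed to 859 CPM in mesenchymal cells of set 3, against between 5572 and 7781 CPM in endothelial cells of the 4 sets; the part of endothelial RNA in the Col4a1 level of mesenchymal cells was not tested.

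Col4a1 (chr8:11198423-11312826, minus strand) and Col4a2 (chr8:11312805-11449287, plus strand) encode the α1 and α2 chains that assemble into the common type IV collagen network, and they lie head to head. Their start sites are 21 bases apart and their promoter windows share 78 bases, which are in capitals in the Col4a2 window.
Col4a2, chr8:11312555-11312854, plus strand: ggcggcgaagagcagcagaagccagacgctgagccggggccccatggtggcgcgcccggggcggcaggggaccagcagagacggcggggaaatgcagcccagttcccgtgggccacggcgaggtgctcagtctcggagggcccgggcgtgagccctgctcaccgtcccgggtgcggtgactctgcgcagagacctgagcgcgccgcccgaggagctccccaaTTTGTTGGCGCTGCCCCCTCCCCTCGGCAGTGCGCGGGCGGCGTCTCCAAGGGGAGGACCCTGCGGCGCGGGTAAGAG
The shared bases, chr8:11312777-11312854, hold the GGGCGG that starts at 8 in the Col4a2 window and is read on the other strand from 10 in the Col4a1 window. A CCAAT lies at -32 in the Col4a2 window and another at -145, on the other strand, in the Col4a1 window. The genes themselves overlap by 22 bases on opposite strands, and the strand setting used for counting is not given in the sources used here.

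Both type IV collagen genes were high in endothelial cells of every set. Col4a1 was at 398, 1018, 1576 and 670 CPM in endothelial cells of sets 1 to 4, against 13.9, 5.45, 28.4 and 18.5 CPM in hepatocytes. Col4a2 was at 306, 311, 482 and 439 CPM in endothelial cells, against 0.414, 3.998, 0 and 17.97 CPM in hepatocytes. The lowest endothelial set was above the highest hepatocyte set for both genes, but how many of all genes tested share this was not counted. Hspg2 (chr4:137468769-137570630, plus strand), the perlecan gene, followed with 302, 1431, 1878 and 461 CPM in endothelial cells, against 1.91, 18.2, 1.84 and 24.04 CPM in hepatocytes. Its promoter window, shown for its repeated Sp1 motif, held GGGCGG at 5 places and none of the other motifs.
Hspg2, chr4:137468553-137468852, plus strand: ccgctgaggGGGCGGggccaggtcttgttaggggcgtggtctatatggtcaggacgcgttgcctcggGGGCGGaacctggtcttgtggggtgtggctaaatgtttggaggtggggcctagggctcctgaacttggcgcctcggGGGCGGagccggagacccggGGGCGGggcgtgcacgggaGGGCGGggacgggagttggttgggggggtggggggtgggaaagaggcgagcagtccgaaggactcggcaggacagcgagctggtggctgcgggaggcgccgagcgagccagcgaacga

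Of the 10 genes, 6 passed the filter in the comparison of endothelial cells with hepatocytes, and 5 of these were higher and 1 lower in endothelial cells, against 21.9% higher and 9.11% lower of the 5936 genes tested. Col4a1, Col4a2 and Hspg2 had median levels under 20 CPM in hepatocytes and passed only through endothelial cells. The same holds for Timp3, whose hepatocyte levels of 16.5, 28.4, 0 and 24.5 CPM averaged under 20 CPM. The median log2 ratios were 4.97 for Col4a1 (4.10 to 6.06 over the 4 sets), 4.72 for Col4a2 (4.004 to 5.62), 5.19 for Hspg2 (3.79 to 7.32), 5.55 for Sparc (3.90 to 6.16) and 5.42 for Timp3 (3.83 to 7.05). Fn1 was the lower one, at a median log2 ratio of -2.92 (-3.41 to -2.45). Against B cells the same 5 genes of 6 tested were higher in endothelial cells and none was lower, with 20.7% higher and 5.69% lower of the 5962 genes tested. Col4a1, Col4a2, Hspg2 and Timp3 were under 20 CPM in B cells of every set, so they passed only through endothelial cells here too. Endothelial cells stood between 4.77 for Col4a2 and 6.13 for Timp3 on the median log2 scale above B cells, in which the 5 genes had medians between 3.59 CPM (Col4a2) and 25.4 CPM (Sparc).

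Many endothelial cells carried these genes even at low depth. After thinning to 1000 UMIs, Sparc had a UMI in 89.0% of 2203 endothelial cells, Col4a1 in 54.2%, Hspg2 in 48.6%, Timp3 in 47.8% and Col4a2 in 34.8%, against 4.86%, 1.20%, 0.935%, 0.908% and 0.908% of 3743 B cells. Without thinning the endothelial shares were 89.4%, 71.0%, 71.9%, 68.8% and 53.8%, at a median depth of 1967 UMIs, against 4.93%, 1.26%, 1.36%, 1.15% and 0.992% in B cells at 1173 UMIs. Within the thinned endothelial cells 1 gene was somewhat more frequent in cells that had the other. Col4a1 was present in 59.0% of cells with Col4a2 and in 51.6% of cells without it, and in 59.8% of cells with Hspg2 and in 48.9% of cells without it. These shares are pooled over sets that differ in level, so they also carry the differences between sets.

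**Figure D4:**
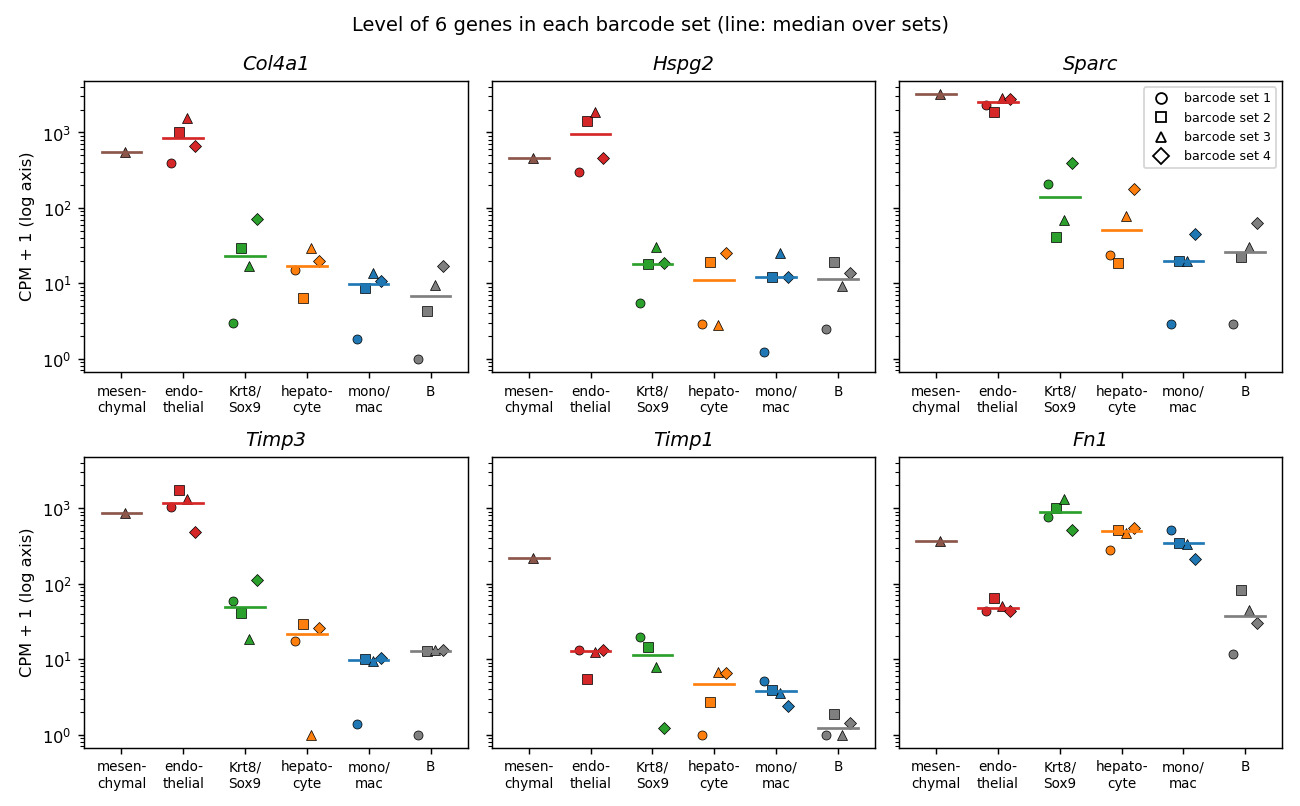
Level of Col4a1, Hspg2, Sparc, Timp3, Timp1 and Fn1 in 6 cell classes, with 1 point per barcode set (shape) and a line at the median; the y axis is CPM + 1 on a log scale. Endothelial points lie above hepatocyte and B cell points in every set for Col4a1, Hspg2, Sparc and Timp3, and Krt8/Sox9 epithelial, hepatocyte and monocyte or macrophage points lie above endothelial points for Fn1.

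The endothelial levels varied between sets by gene. Hspg2 was 6.21 times as high in the highest set (set 3) as in the lowest (set 1), Col4a1 3.96 times (sets 3 and 1) and Timp3 3.66 times (sets 2 and 4), whereas Col4a2 varied 1.57-fold and Sparc 1.52-fold. Endothelial cells of different sets fell mostly into different clusters: of the 3 endothelial clusters, the largest held 719 cells of set 2 and 380 of set 3, and the others held 1072 and 514 cells of set 4. The differences in Hspg2 between sets were also present within a cluster. Set 2 had 1438 CPM of Hspg2 in the largest cluster and 1567 CPM in the next, set 4 had 445 and 514 CPM there, and set 1 had 279 and 420 CPM. Sets 2 and 3 also had the lowest median depths, and the part of depth or sample in these differences was not tested.

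The balance of the type IV chains moved with the set as well. Col4a1 made up 55.7%, 75.5%, 76.1% and 60.6% of the Col4a1 and Col4a2 UMIs in endothelial cells of sets 1 to 4, and 64.0% over all of them (95% exact interval 63.1% to 64.8%). In vascular endothelial cells the shares were 51.4%, 77.9%, 69.6% and 59.9% in the 4 sets, against 53.3%, 75.5%, 78.0% and 60.7% in sinusoidal endothelial cells. Mesenchymal cells had 81.4%, 69.4% and 59.6% in sets 2 to 4, those of set 4 all outside the mesenchymal cluster. In each of these classes the shares of sets 2 and 3 were above that of set 4, so among them the share differed more between sets than between classes. Intervals here cover counting error only.

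**Figure D5:**
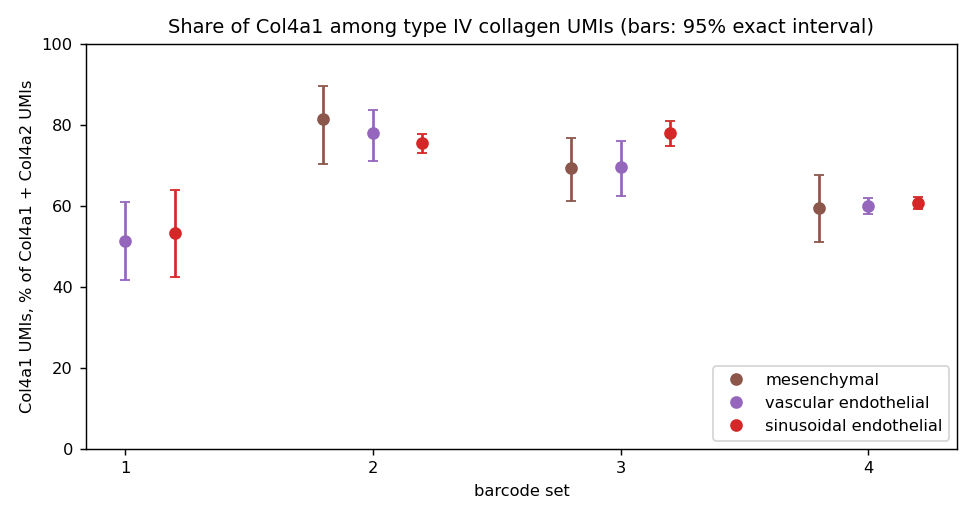
Share of Col4a1 among the Col4a1 and Col4a2 UMIs (y axis, percent) in mesenchymal, vascular endothelial and sinusoidal endothelial cells of each barcode set (x axis); bars are 95% exact binomial intervals. The classes lie close together within a set, and sets 2 and 3 lie above set 4 in each class.

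Vascular (non-sinusoidal) endothelial cells, 379 in all, were set against 2047 sinusoidal endothelial cells, the fenestrated lining of the liver capillaries. None of the 6 genes that passed the filter was called in either direction, while 0.377% of the 6358 genes tested were called higher and 0.0472% lower. Timp3 came nearest: it was at 1377, 3058, 2511 and 681 CPM in vascular cells of sets 1 to 4, against 843, 1717, 1231 and 481 CPM in sinusoidal cells. It was thus higher in vascular cells of all 4 sets, by a median of 0.76 on the log2 scale (0.49 to 1.02), and passed 2-fold in 1 of them. Col4a1 (median log2 ratio 0.31, -0.17 to 0.44), Col4a2 (0.51, -0.27 to 1.009), Sparc (0.04, -0.44 to 0.46), Hspg2 (-0.33, -0.71 to 0.55) and Fn1 (-1.06, -2.82 to 0.27) had sets on both sides of 0. Median depth was 4303 UMIs in vascular and 1511 UMIs in sinusoidal cells, and platelet markers summed to between 18.5 and 99.1 CPM in vascular cells against between 38.4 and 2064 CPM in sinusoidal cells.

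Sparc (chr11:55394500-55423183, minus strand) was the most abundant of the 10 genes in endothelial cells, at 2316, 1869, 2841 and 2780 CPM in sets 1 to 4, against 22.4, 17.8, 77.7 and 177 CPM in hepatocytes. Its spread between endothelial sets was small beside its distance from hepatocytes and from B cells, which had 1.92, 21.7, 29.1 and 62.8 CPM. Cholangiocytes, the bile duct cells, had 326 CPM in set 3 and 599.9 CPM in set 4, above the hepatocytes of the same sets. The endothelial cluster with the highest score for platelet markers had 1978 CPM of Sparc, against 2221 and 3126 CPM in the other endothelial clusters. These clusters differ in set and depth, and the part of platelet RNA, which also holds Sparc, was not tested.

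Fn1 (chr1:71585520-71653200, minus strand) followed the epithelial cells and a part of the myeloid cells. The Krt8/Sox9 epithelial cells, which carry Krt8 and Sox9 but were not called cholangiocytes, had 754.6, 996.6, 1326 and 506 CPM of Fn1 in sets 1 to 4, against 277, 516, 468 and 552 CPM in hepatocytes. They were higher in sets 1 to 3 and not in set 4, and the median log2 ratio was 1.17 (-0.12 to 1.48). Of the 10 genes, 4 passed the filter in this comparison and none was called, against 6.19% higher and 3.32% lower of the 5185 genes tested. Timp3 was on the higher side in all 4 sets (median log2 ratio 1.41, 0.36 to 1.79), at 57.8, 39.5, 17.7 and 110 CPM in Krt8/Sox9 epithelial cells against 16.5, 28.4, 0 and 24.5 CPM in hepatocytes, and became a call when set 2 was left out. Set 1 held 20 Krt8/Sox9 epithelial cells, at the limit for giving a value. The 7 hepatocyte markers summed to between 14417 and 23042 CPM in Krt8/Sox9 epithelial cells, below the hepatocyte range given above, and their part in the Fn1 levels was not tested.

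Within hepatocytes Fn1 was uneven. The hepatocyte cluster of 641 cells had 822 CPM of Fn1, with 483 to 1039 CPM over the 4 sets, and the cluster of 527 cells had 65.8 CPM, with up to 169 CPM in a set. After thinning, Fn1 had a UMI in 55.6% of Krt8/Sox9 epithelial cells, 35.9% of hepatocytes and 20.4% of monocytes and macrophages, against 2.59% of B cells. Without thinning these shares were 79.1%, 41.4% and 32.7%, at median depths of 5326, 1592 and 2822 UMIs, against 4.01% in B cells at 1173 UMIs. Endothelial cells, at 2.86% thinned and 46.3 CPM, were not separable from B cells, at 36.2 CPM: their log2 ratio was 0.30 and ran from -0.31 to 1.34 over the sets.

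Monocytes and monocyte-derived macrophages differed in Fn1 from Kupffer cells, the resident macrophages of the sinusoids. Monocytes and macrophages had 509, 348, 334 and 209 CPM in sets 1 to 4, against 3.92, 80.2, 0 and 45.2 CPM in Kupffer cells. The set values did not overlap, but how many of all genes tested share this was not counted. The median log2 ratio was 3.55 (1.99 to 5.22). Kupffer cells lay within the B cell range of 10.8 to 81.4 CPM or below it. Within the monocytes and macrophages, the cluster with Chil3 and Ccr2, genes of monocytes, among its leading genes had 419 CPM of Fn1 and the cluster with Trem2 and Gpnmb, genes of tumour and lipid-associated macrophages, had 89.5 CPM. By set these were 721, 441, 503 and 277 CPM against 71.5, 245, 64.3 and 36.1 CPM, so the clusters lay closest in set 2. Fn1 was the 1 gene called higher of 3 that passed the filter, against 2.45% of the 5338 genes tested, and Sparc the 1 called lower, against 3.52%. Sparc was at 1.87, 18.6, 18.7 and 43.4 CPM in monocytes and macrophages against 20.8, 49.5, 64.2 and 115 CPM in Kupffer cells (median log2 ratio -1.30); B cells had 1.92, 21.7, 29.1 and 62.8 CPM. The Sparc call was lost under 6 of the alternatives, among them summed UMIs, a pseudocount of 50 CPM and the B cell level subtracted. The pan-endothelial markers moved the same way, with a median sum of 114 CPM in monocytes and macrophages and 518 CPM in Kupffer cells, and their part in the Sparc call was not tested.

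Timp1 (chrX:20870166-20874735, plus strand) and Timp3 (chr10:86300372-86349506, plus strand) encode metalloproteinase inhibitors; TIMP1 is secreted in soluble form and is known from liver fibrosis, and TIMP3 binds to the matrix. Their promoter windows are shown because in set 3 Timp1 was highest in mesenchymal cells and Timp3 in endothelial cells.
Timp1, chrX:20869916-20870215, plus strand: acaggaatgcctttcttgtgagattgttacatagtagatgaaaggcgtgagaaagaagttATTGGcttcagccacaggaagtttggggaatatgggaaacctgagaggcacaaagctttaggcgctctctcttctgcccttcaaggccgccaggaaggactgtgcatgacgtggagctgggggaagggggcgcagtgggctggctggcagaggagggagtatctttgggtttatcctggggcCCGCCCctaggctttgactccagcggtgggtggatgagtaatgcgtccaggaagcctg
Timp3, chr10:86300162-86300461, plus strand: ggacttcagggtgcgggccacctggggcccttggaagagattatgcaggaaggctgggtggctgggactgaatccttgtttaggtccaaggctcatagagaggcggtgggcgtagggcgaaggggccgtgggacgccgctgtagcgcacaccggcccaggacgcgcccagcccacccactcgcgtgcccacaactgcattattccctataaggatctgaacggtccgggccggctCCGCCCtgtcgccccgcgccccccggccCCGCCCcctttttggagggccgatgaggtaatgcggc
Both windows hold GGGCGG on the other strand, at -8 in Timp1 and at -15 and 14 in Timp3, and the Timp1 window also holds CCAAT on the other strand at -190. Each gene lies within a gene on the opposite strand, Timp1 within Syn1 (71 UMIs in the table) and Timp3 within Syn3 (14 UMIs).

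Timp1 was low in every class but the mesenchymal cells. In set 3 it had 57 UMIs in 13 of the 41 mesenchymal cells (215 CPM), 23 of them in the cell with the most Col1a1, and in set 2 it had 2 UMIs in 1 of 8 cells. No Timp1 UMI was found in the 11 mesenchymal cells of set 4, which allows up to 29.2 CPM, so a level like the 12.2 CPM of endothelial cells would not have been detectable in them. Endothelial cells had 12.3, 4.52, 11.4 and 12.2 CPM in sets 1 to 4 and Krt8/Sox9 epithelial cells 18.8, 13.6, 6.75 and 0.202 CPM; these sets overlap. Within set 3, Timp1 had 30 UMIs in 11 of the 32 mesenchymal cells with Msln or Upk3b and 27 UMIs in 2 of the 9 with neither.

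Timp3 was by contrast high in endothelial cells and also counted in mesenchymal cells, and it was not called different between them in set 3. It was at 1036, 1760, 1317 and 481 CPM in endothelial cells of sets 1 to 4, against 16.5, 28.4, 0 and 24.5 CPM in hepatocytes, and the mesenchymal cells of set 3 had 874 CPM. In thinned mesenchymal cells Col1a1 had a UMI in 8 of 26 cells with Timp3 (30.8%) and in 8 of 28 without it (28.6%). It had one in 13 of 30 cells with Col3a1 (43.3%) and in 3 of 24 without Col3a1 (12.5%). These shares rest on few cells, pooled over sets and over cells with and without mesothelial markers, so they cannot exclude a link between Timp3 and Col1a1. In set 3 the 32 mesenchymal cells with Msln or Upk3b had 1021 CPM of Timp3, with 53 of 138 UMIs in 1 cell, and the 9 with neither had 351 CPM. In set 2 the direction was the other way, at 960.3 CPM in 2 cells with the markers and 1847 CPM in 6 with neither, and the 11 cells of set 4 had 207 CPM. Cholangiocytes had 199 CPM in set 3 and 76.9 CPM in set 4, where Krt8/Sox9 epithelial cells had 110 CPM, and the unnamed cluster had between 493 and 702 CPM in sets 2 to 4.

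Other genes of the matrix were read from fixed lists. In mesenchymal against endothelial cells of set 3, 11 of 12 tested other collagens were higher and 1 was lower, and their median log2 ratio was 3.49, against -0.16 over all genes tested and 1.40 over the 10 genes. The highest were the type VI chain genes Col6a1 (494 CPM), Col6a2 (408 CPM) and Col6a3 (289 CPM) and the fibril-associated Col14a1 (384 CPM), against at most 10.7 CPM in endothelial cells. Of matricellular, elastic fibre and proteoglycan genes 14 of 17 were higher and 1 lower, among them Mgp, which encodes an inhibitor of calcification (1086 CPM in mesenchymal against 12.0 CPM in endothelial cells), and elastin (Eln, 602 CPM against 22.7 CPM). The collagen chaperone gene Serpinh1 was not called, at 606 CPM in mesenchymal against 472 CPM in endothelial cells, while 6 of 15 folding and crosslinking genes were higher and 1 lower, Loxl1 with 365 CPM and no endothelial UMI among the higher. Of laminins and other basement membrane genes 4 of 8 were higher and 1 was lower, the lower one being nidogen (Nid1) at 50.6 CPM against 324 CPM. Matrix receptors had 10 of 16 higher and 3 lower, the collagen-binding integrin Itga1 among the lower at 127 CPM against 688 CPM.

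The proteases and the other TIMP were spread over more classes. Timp2 was at 1364 CPM in mesenchymal against 25.1 CPM in endothelial cells of set 3 (log2 ratio 5.29), above Timp1 and Timp3 there, and was next found in cholangiocytes (231 CPM) and Kupffer cells (209 CPM). The gelatinase gene Mmp2 had 14 UMIs in mesenchymal cells (112 CPM in set 3), and the membrane-anchored Mmp14 was lower in them than in endothelial cells, at 311 CPM against 813 CPM. Mmp9, which encodes the gelatinase of neutrophil granules, was at 963 CPM in neutrophils (603 to 1248 CPM over the sets) and at most at 18.8 CPM as the median of any other class. Of 8 tested metalloproteinase and TIMP genes 3 were higher and 4 lower in mesenchymal cells. In endothelial cells against hepatocytes all 4 tested were higher (Mmp14, Adamts1, Adam10 and Adam17), and their median log2 ratio was 2.42 against 0.69 over all genes tested.

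Endothelial cells also had more of the basement membrane and folding genes than hepatocytes. All 4 tested laminin and basement membrane genes were higher, led by Nid1 at 268 CPM in endothelial cells against 54.8 CPM in hepatocytes, and so were 7 of 9 folding and crosslinking genes, with Serpinh1 at 301 CPM against 3.70 CPM. Among other collagens 1 of 3 was higher (Col13a1) and 1 lower: Col18a1, whose product carries endostatin, was at 11.9 CPM in endothelial cells against 128 CPM in hepatocytes. Matricellular genes had 2 of 7 higher (Bgn and Ctgf) and 1 lower (Vtn, the plasma protein vitronectin), and matrix receptors 6 of 11 higher and 3 lower. Against B cells, 1 of 2 other collagens, 3 of 5 basement membrane genes, 6 of 7 folding genes, 3 of 5 matricellular genes, 3 of 4 proteases and 6 of 9 receptors were higher in endothelial cells, and only Lamb3 was lower.

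The epithelial, myeloid and vascular comparisons gave fewer calls. In Krt8/Sox9 epithelial cells against hepatocytes, 2 of 5 matricellular genes were higher, Cyr61 (932 CPM against 56.7 CPM) and Thbs1 (228 CPM against 24.4 CPM), with 1 of 4 proteases (Adamts1) and 4 of 10 receptors, the syndecan gene Sdc4 among them (800.3 CPM against 226 CPM). The 1 collagen, 1 basement membrane gene and 3 folding genes tested there were not called. In monocytes and macrophages against Kupffer cells, Thbs1 (546 CPM against 14.8 CPM) and Tgfbi (608 CPM against 207 CPM) were the 2 of 3 matricellular genes that were higher, as was 1 of 8 proteases, while the collagen galactosyltransferase gene Colgalt1 was lower, at 108 CPM against 464 CPM, the 1 of 5 folding genes called. No receptor of 7 was called, and no other collagen or basement membrane gene passed the filter. In vascular against sinusoidal cells, Fbln2, which encodes the basement membrane protein fibulin-2, was higher, at 314 CPM against 9.31 CPM (median log2 ratio 3.25, 1.90 to 4.42), as the 1 of 10 matricellular genes called. None of 3 other collagens, 5 basement membrane genes, 10 folding genes, 6 proteases and 9 receptors was called there.

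Genes whose levels ran most like each of the 10 were ranked by Pearson's r of log2(CPM + 10) over 58 class and set values among 10785 genes. The points share libraries and free RNA, and those of the fibrillar collagens rest on the 1 mesenchymal value of set 3, so r is given as a description. Dpt and Upk3b were among the markers that chose the mesenchymal cells, so their likeness to the collagens follows in part from that choice. Col1a1 ran most like Wt1 (r 0.991), Fam180a and Mfap5, and Col1a2 most like Dpt (0.983), Gm15867 and Upk3b. For Col3a1 the closest were Lgi2 (0.949), Upk3b and Muc16; Wt1, Upk3b and Muc16 are known from mesothelium. Col4a1 had Bgn (0.937), Esam and Cavin2, Col4a2 had Esam (0.945), Pxdn and Limch1, and Hspg2 had Grb10 (0.941), Pxdn and Mxra7. Sparc had Igfbp7 (0.931), Tspan7 and S100a16, and Timp3 had Meis2 (0.914), Ltbp4 and Podxl. Fn1 was closest to the complement genes C3 (0.853) and Cfb and to Cyp39a1, which encodes a hepatic oxysterol hydroxylase. Timp1 was closest to Arhgef25 (0.869), Gpm6a and Prss23.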

How the data were processed

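Droplet libraries of digested liver (10x Genomics Chromium, Single Cell 3′ v2) were sequenced, per the labels' protocols. The submitters' processing notes name CASAVA 1.8, Cell Ranger, Seurat and the mm10 genome. Other versions, the filters on cells and any doublet removal were not stated in the labels. Each deposited value is a natural log: the authors added 1 to the UMI count of a gene per 10000 UMIs of its cell before taking it. Undoing the log, 100% of nonzero values were whole multiples (within 0.001) of the lowest one in the same cell, so whole UMIs were recovered, 65920312 in total, from 9093921 to 35033778 per barcode set. Every cell had at least 201 genes. The 24802 cell columns carry no label of a sample, so none was mapped to one.

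Clustering used scanpy 1.11.5, anndata 0.12.19, igraph 0.11.9 and scikit-learn 1.9.0, with 2000 variable genes, 30 components, 15 neighbours, Leiden resolution 1.0 and seed 1, and gave 27 clusters. The 10 genes and all list genes were left out of it. Clusters were named from 19 marker lists by rules set with the data in view. A name needed at least 3 markers past 2-fold and 1 among the leading 10 genes. Endothelial cells were sub-clustered, and 405 of them in sub-clusters led by leukocyte markers were kept in the endothelial class only. Mesenchymal cells were those with UMIs of at least 3 of 21 markers. No cell was removed and no doublet caller was run.

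Genes named are the 10 genes, up to 4 members of each list with the highest level in a comparison, with Timp2, Mmp2, Mmp9, Mmp14 and Serpinh1, and the 3 genes most like each of the 10. The 10 genes and the lists were chosen with earlier results of these data known. A pseudocount of 10 CPM, a filter of 20 CPM and classes of at least 20 cells per set were used, and no test was run, since the cells of a pooled table are not replicates. The calling rule was also run on simulated cells drawn from a single hepatocyte profile, with equal cell numbers in every set. Apart from the changes put in, these cells varied only by depth and counting. That setting differs from the mesenchymal comparison, which rests on few and uneven cells of set 3, so it does not test that comparison. GENCODE vM21 (GRCm38, which is mm10) gave positions and matched 17545 of the 17813 symbols; promoter windows are from RefSeq on GRCm38.p6. Intervals and count limits (3 UMIs for a count of 0) cover counting error only. Calculations used Python 3.11.15, numpy 2.4.6, scipy 1.17.1, pandas 2.3.3 and matplotlib 3.10.9.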

Additional observations from a re-analysis of the deposited data

How the results depend on the processing

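Across the alternatives, the counts of genes called in endothelial cells against hepatocytes, in endothelial cells against B cells and in vascular against sinusoidal cells stayed within 1.5 times their value. The 3 genes lower in mesenchymal than endothelial cells became 1 with a gate of 2 markers and 0 when sets with at least 5 cells were counted, where the Col4a1 log2 ratio reversed to 0.25; that setting, the mesenchymal cluster in place of the gate, and leaving out the cell with the most Col1a1, mixed endothelial sub-clusters or the shallow Krt8/Sox9 cluster were chosen after seeing the data. The count of genes lower in monocytes and macrophages than Kupffer cells was 0 with summed UMIs, a pseudocount of 50 CPM, a filter of 100 CPM, Leiden resolution 2.0, cells of at least 500 genes or the B cell level subtracted, and 2 with a pseudocount of 1 CPM. Leaving out 1 barcode set gave 0 to 1 genes higher in Krt8/Sox9 epithelial cells than hepatocytes. The 1 was Timp3 with set 2 left out, since its log2 ratio was 0.36 in set 2 and 1.36 to 1.79 in the other sets. The cause of the other changes in these counts was not tested. Of 530 ratios of single genes under alternatives, 457 moved by less than a limit, 72 moved by more and 1 reversed. The limit was the standard deviation between sets. For the mesenchymal comparison, which has 1 set and so no such spread, it was the counting error of the mesenchymal UMIs. Of 60 shares of cells with a UMI, 31 left their interval when cells were thinned to 2000 UMIs. Leaving out set 3, or a gate of 5 markers (16 cells in set 3), left no mesenchymal value. No paired analysis was possible because the cells carry no sample labels. Mesenchymal values rest on 41 cells of 1 set, and Timp1 values on 309 UMIs in all.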
